A study of Rattus norvegicus with 9 samples.

Results

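The endocannabinoid receptors and enzymes were followed in the rat dorsal root ganglion (DRG), where the somata of hind limb sensory neurons sit. The genes were chosen by name and were Cnr1 and Cnr2 (the cannabinoid receptors CB1 and CB2), Dagla and Daglb (diacylglycerol lipases), Napepld (N-acylphosphatidylethanolamine phospholipase D), Faah (fatty acid amide hydrolase) and Mgll (monoacylglycerol lipase). All 7 were found in the deposited table of 20413 genes, each under its symbol, and all 7 passed the filter on low values that left 17187 genes for testing. RNA-Seq had been carried out on right, ipsilateral L4-6 DRGs of young adult male Sprague Dawley rats, collected on day 10, with 3 rats and 3 libraries in each of 3 groups. Rats of the Sham group (labelled Con) were anesthetized and wore a cut O-ring that left the blood flow open. In the chronic post-ischemic pain (CPIP) group, a tight O-ring stopped blood flow to one hind paw and was then removed for reperfusion. Rats of the CPIP+EA group went through the same ischemia and then had electroacupuncture (EA) once a day for 10 days through needles at the Zusanli and Kunlun acupoints of both hind limbs. The 3 groups hold no CPIP rats needled without current, so needling, handling and current cannot be told apart. The whole ganglion was sequenced, so fewer cells of a type and less RNA per cell cannot be told apart either.

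Endocannabinoids are lipids made on demand in cell membranes. The 2 best known are 2-arachidonoylglycerol (2-AG), which the diacylglycerol lipases release from diacylglycerol, and anandamide, which Napepld releases from a membrane phospholipid. Both act on CB1, a receptor of neurons that lowers transmitter release through Gi/o proteins, and on CB2, which is found mainly on immune cells. Mgll hydrolyses 2-AG and Faah hydrolyses anandamide, and inhibitors of these enzymes and agonists of peripheral CB1 are known to lessen pain responses in rodents.

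The libraries carried the marks of sensory ganglia and of the injury. Summed FPKM (fragments scaled to transcript length and to the number of mapped fragments) of 10 sensory neuron markers lay between 10371 and 13018 in the 9 libraries, with all 10 above 0 in every library. The 6 axon injury genes Atf3, Npy, Gal, Vip, Sprr1a and Gap43 summed to between 144 and 151 FPKM in Sham, between 740 and 861 in CPIP and between 812 and 916 in CPIP+EA. All 6 passed the threshold given below in CPIP and in CPIP+EA, each against Sham, and none did between CPIP+EA and CPIP. A pair of libraries stood apart in other lists. CPIP+EA replicate 3 had the highest sums of neutrophil, erythroid, macrophage and B cell markers, and CPIP replicate 2 had 144 FPKM of 5 skeletal muscle markers, where the other 8 libraries had at most 42.6. The total over all genes was 445647 to 482940 FPKM in the 9 libraries. The read counts behind single values are not known from these values, and precision is limited by having 3 libraries a group.

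The members spanned a wide range of levels in the DRG. FPKM is scaled to transcript length, so these levels can be set side by side. Mgll led with a mean of 85.6 FPKM over the 9 libraries, above 94.2% of the genes tested. Dagla followed with 13.5 and Daglb with 8.75 FPKM, then Cnr1 with 4.67, Napepld with 3.88, Faah with 3.16 and Cnr2 with 1.92. Mgll lay above Dagla, Dagla above Daglb and Daglb above Cnr1 in 9 of 9 libraries, with no overlap of their ranges. The ranges of the next neighbours overlapped, and Cnr1 was above Napepld in 7, Napepld above Faah in 6 and Faah above Cnr2 in 8 of the 9 libraries. Among the members, the 2-AG enzymes were thus each listed at higher FPKM than Napepld and Faah, in all 9 libraries. The wider list described below holds further genes of anandamide synthesis at both ends of this scale. Abhd4 had group means of 286 to 303 FPKM and Gde1 of 120 to 127, above Mgll, while Pla2g4e had 0.673 to 0.930. Cnr2 was lowest, between 1.31 and 3.14 FPKM.

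**Figure D1:**
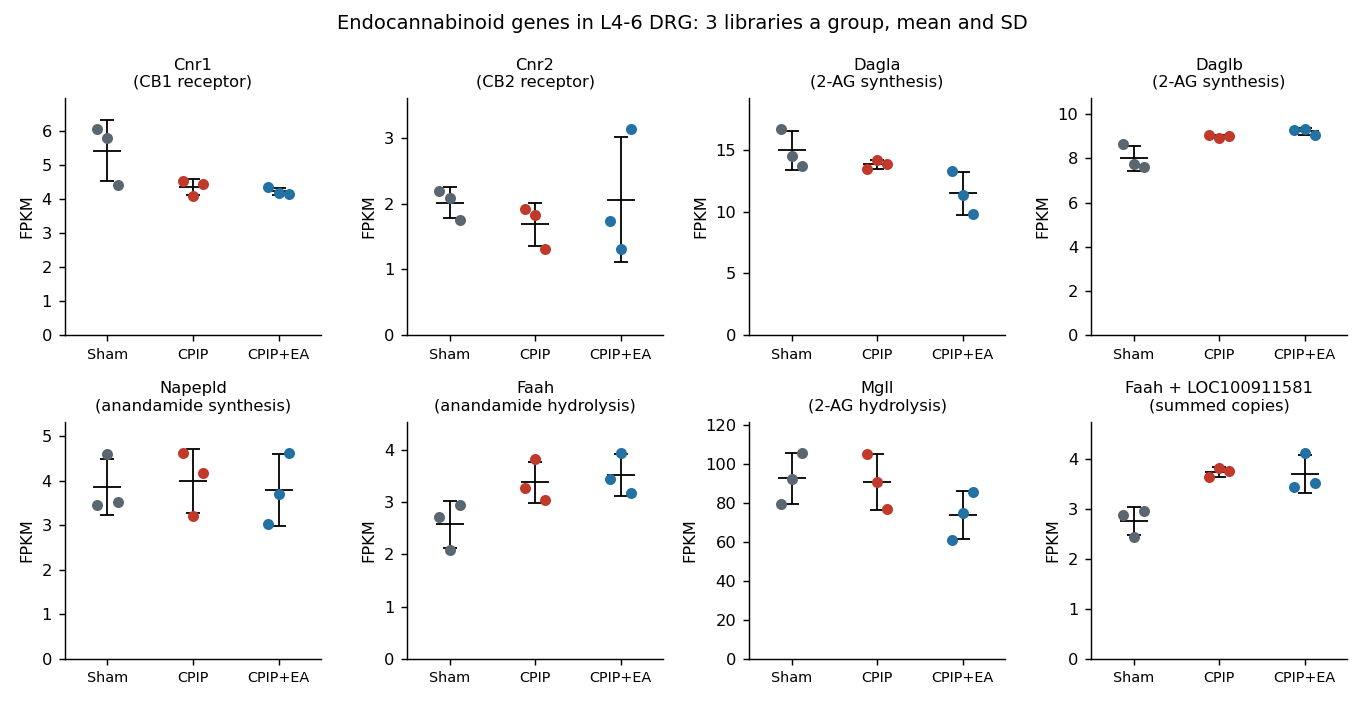
FPKM of the 7 genes, and of Faah summed with its copy LOC100911581, in each library (points, 3 a group), with the mean (bar) and SD (whiskers) of each group on a linear axis from 0. Daglb and Faah sit higher in all CPIP and CPIP+EA libraries than in any Sham library, Dagla is lowest in CPIP+EA, and Napepld and Mgll spread as widely within groups as between them.

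None of the 7 genes passed the threshold in any comparison. The threshold was a Benjamini-Hochberg adjusted p under 0.01 in limma over all 17187 genes with a fold change of at least 1.5 in either direction, and 0.355% of all genes passed it between CPIP and Sham, 0% between CPIP+EA and CPIP and 0.483% between CPIP+EA and Sham. At an adjusted p under 0.05 with no fold threshold there were also 0 members, where 0.71%, 0% and 1.31% of all genes passed in the same order. The smallest adjusted p of a member in limma was 0.526 (Faah) between CPIP and Sham, 0.996 between CPIP+EA and CPIP, and 0.201 (Dagla) between CPIP+EA and Sham. Without adjustment, 3 members had a limma p under 0.05 between CPIP and Sham (Cnr1, Daglb and Faah, where 8.66% of all genes did). There was 1 between CPIP+EA and CPIP (Dagla, where 4.29% of all genes did), and there were 4 between CPIP+EA and Sham (Cnr1, Dagla, Daglb and Faah, where 12.2% of all genes did). Groups did not overlap for 2 members between CPIP and Sham, Daglb and Faah, both higher, where 15.9% of all genes were free of overlap (7.98% higher, 7.9% lower). Between CPIP+EA and CPIP this held for 1 member, Dagla, which was lower, where 8.23% of all genes were free of overlap (4.84% higher, 3.4% lower). Between CPIP+EA and Sham it held for 4 members, Daglb and Faah higher and Cnr1 and Dagla lower, where 16.2% of all genes were free of overlap (8.87% higher, 7.32% lower). The 2 comparisons with Sham share the Sham libraries, and those that involve CPIP share the CPIP libraries, so these counts are not separate evidence. The median log2 fold change of the 7 genes was -0.03, -0.04 and -0.03 in the 3 comparisons, beside -0.01, 0.01 and 0.00 for all genes tested.

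**Figure D2:**
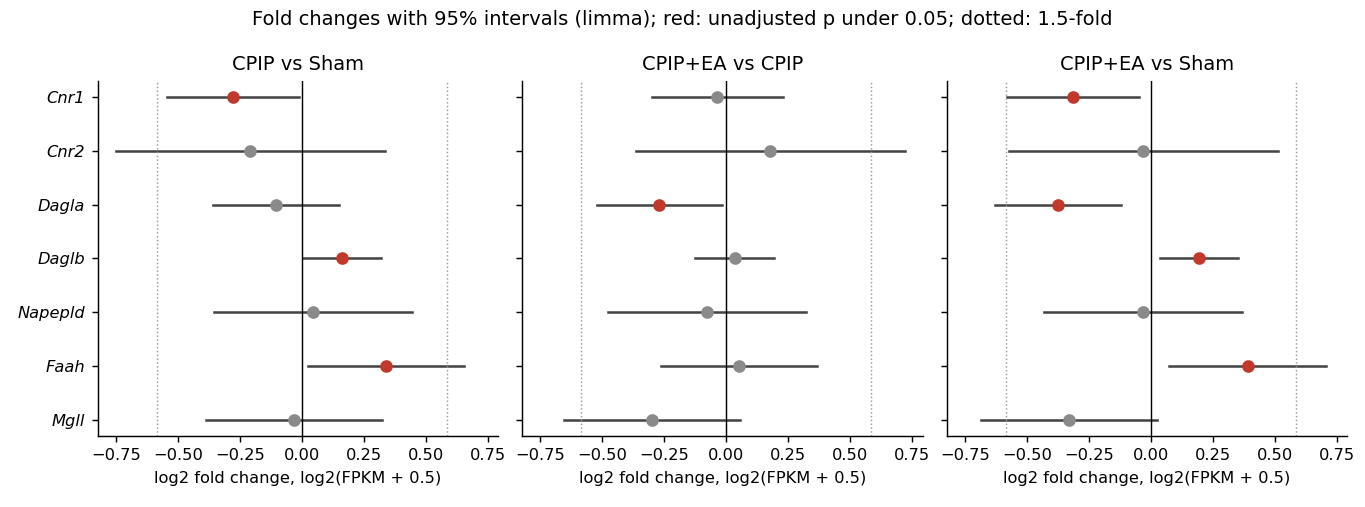
Log2 fold change on the log2(FPKM + 0.5) scale (x axis) of each of the 7 genes (rows) in the 3 comparisons, with 95% limma intervals as lines, red points where the unadjusted p was under 0.05 and dotted lines at 1.5-fold. All points lie within 1.5-fold of no difference, and no gene passed the adjusted threshold.

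Among the receptors, Cnr1 mRNA was listed lower in CPIP at 0.824-fold of Sham on the log2(FPKM + 0.5) scale, short of the threshold. Cnr1 had 6.07, 5.81 and 4.41 FPKM in the Sham, 4.53, 4.09 and 4.44 in the CPIP, and 4.36, 4.18 and 4.15 in the CPIP+EA libraries. Sham replicates 1 and 2 were the highest of the 9 libraries, whereas Sham replicate 3 lay among the CPIP values and above all CPIP+EA values. The means were 5.43 ± 0.893, 4.35 ± 0.232 and 4.23 ± 0.114 FPKM (SD, n = 3 each). For CPIP against Sham, its log2 fold change was -0.28 (95% interval -0.54 to -0.01, limma adjusted p of 0.544). It was -0.41 without Sham replicate 3 and -0.20 without Sham replicate 1. CPIP+EA differed from Sham by -0.31 (interval -0.58 to -0.05, limma adjusted p of 0.316). That difference was -0.45 without Sham replicate 3 and -0.24 without Sham replicate 1. For CPIP+EA against CPIP it was -0.04, with an interval from -0.30 to 0.23, which leaves room for differences of up to that size. Several of the sensory neuron markers were lower in CPIP than in Sham by a like amount with no overlap, Rbfox3 at 0.789-fold, Nefm at 0.810-fold, Nefl at 0.844-fold and Snap25 at 0.849-fold. Tubb3 at 1.33-fold and Prph at 1.21-fold, from the same list, were higher with no overlap, and none of the 10 markers passed the threshold. Of all genes tested, 7.9% were lower and 7.98% higher in CPIP than in Sham with no overlap. The summed FPKM of all 10 markers was highest in Sham replicate 1, as was Cnr1, while CPIP+EA replicates 1 and 2 had high sums (12645 and 11906) and low Cnr1 (4.36 and 4.18). Nefl, Nefm, Uchl1, Tubb3, Nefh and Prph make up most of that sum, so it need not follow neuron content. The part of these markers in the Cnr1 values was not tested.

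Cnr2, the receptor of immune cells, showed overlapping groups and had its highest value in CPIP+EA replicate 3. It had 2.20, 2.09 and 1.75 FPKM in the Sham, 1.92, 1.83 and 1.31 in the CPIP, and 1.74, 1.31 and 3.14 in the CPIP+EA libraries. Of the log2 variance of Cnr2, 89.9% lay within groups. The library at 3.14, CPIP+EA replicate 3, was also the highest in the summed FPKM of 6 neutrophil markers (535, where the other libraries had 27.6 to 214), of 4 B cell markers (17.0, against 1.74 to 11.7) and of 8 macrophage markers (80.3, against 49.7 to 66.1). All 18 of these markers were above 0 in all 9 libraries. Among the other 8 libraries, Sham replicate 1 had the highest Cnr2 (2.20) at a neutrophil sum of 43.4. The part of these markers in the Cnr2 values was not tested. The log2 fold change of Cnr2 between CPIP+EA and CPIP was 0.18 (interval -0.36 to 0.72) with all libraries and -0.11 without CPIP+EA replicate 3. Its log2 fold changes against Sham were -0.21 in CPIP (interval -0.75 to 0.33) and -0.03 in CPIP+EA (interval -0.57 to 0.51). Without CPIP replicate 3, the value for CPIP against Sham was -0.08.

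Of the diacylglycerol lipases that make 2-AG, Dagla had its lowest values in CPIP+EA and Daglb its lowest in Sham, and neither passed the threshold. Dagla, the form that supplies most 2-AG in neurons of the brain, had 16.73, 14.55 and 13.69 FPKM in the Sham, 13.50, 14.23 and 13.88 in the CPIP, and 13.30, 11.37 and 9.80 in the CPIP+EA libraries. All 3 CPIP+EA libraries were below all the other libraries, narrowly so for CPIP+EA replicate 1 (13.30, next to 13.50 in CPIP replicate 1). The means were 15.0 ± 1.57, 13.9 ± 0.365 and 11.5 ± 1.75 FPKM (SD, n = 3 each). Its log2 fold change was -0.10 between CPIP and Sham (interval -0.36 to 0.15), -0.27 between CPIP+EA and CPIP (interval -0.52 to -0.02, limma adjusted p of 0.996) and -0.37 between CPIP+EA and Sham (interval -0.63 to -0.12, limma adjusted p of 0.201). Without CPIP+EA replicate 3, the value between CPIP+EA and CPIP was -0.17. The value between CPIP and Sham was -0.02 without Sham replicate 1 and -0.16 without Sham replicate 3. The adjusted p for CPIP+EA against Sham was the smallest of any member, and over the alternatives it ran from 0.0842 (without CPIP+EA replicate 1) to 0.445 (without Sham replicate 1).

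Daglb, the second diacylglycerol lipase, is known for 2-AG synthesis in macrophages and microglia. It had 8.65, 7.76 and 7.62 FPKM in the Sham, 9.06, 8.93 and 9.03 in the CPIP, and 9.29, 9.34 and 9.05 in the CPIP+EA libraries. All CPIP and CPIP+EA libraries lay above all Sham libraries. Daglb was the steadiest member, with a within-group SD of 0.0557 on the log2 scale, and 4.58% of the 5485 genes within 2-fold of its mean level had a smaller one. The log2 fold change was 0.16 between CPIP and Sham (interval 0.00 to 0.32, limma adjusted p of 0.562) and 0.19 between CPIP+EA and Sham (interval 0.04 to 0.35, limma adjusted p of 0.298). CPIP+EA and CPIP differed by 0.03, with an interval from -0.12 to 0.19.

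The proportion of the Dagla to the Daglb transcript was the 1 of 4 ratios between members in which the 3 groups did not overlap. Within each library, the ratio of Dagla to Daglb FPKM was 1.93, 1.88 and 1.80 in the Sham, 1.49, 1.59 and 1.54 in the CPIP, and 1.43, 1.22 and 1.08 in the CPIP+EA libraries. No 2 groups overlapped, with Sham highest and CPIP+EA lowest, and a ratio within a library does not depend on how that library was scaled. The means were 1.87 ± 0.069, 1.54 ± 0.0518 and 1.24 ± 0.176 (SD, n = 3 each). The ratio was not tested, since it is built from members whose values were in view. Daglb was already free of overlap with Sham in both other groups, and Dagla was in CPIP+EA against both others, which goes into the separation of their ratio. How often ratios of other gene pairs separate the 3 groups was not computed. The summed FPKM of Dagla and Daglb was 23.0 ± 2.12 in Sham libraries, 22.9 ± 0.301 in CPIP libraries and 20.7 ± 1.87 in CPIP+EA libraries (SD, n = 3 each), so the totals of Sham and CPIP differed by less than the SD of Sham while their proportions did not overlap.

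**Figure D3:**
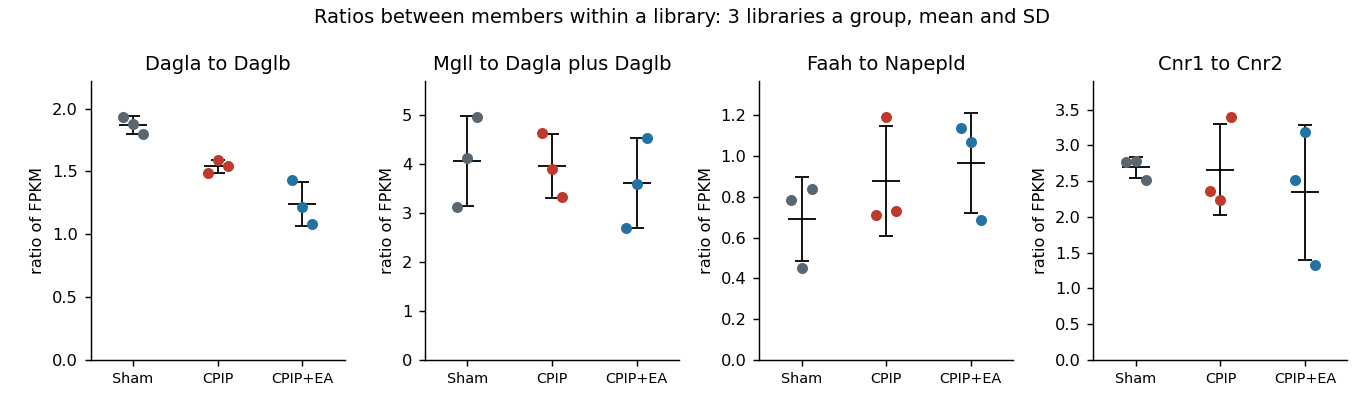
Ratios of FPKM between members within each library (points, 3 a group), with the mean (bar) and SD (whiskers) of each group on linear axes from 0. The ratio of Dagla to Daglb does not overlap between Sham (1.80 to 1.93), CPIP (1.49 to 1.59) and CPIP+EA (1.08 to 1.43), while the groups overlap in the other 3 ratios.

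Neuronal markers were set beside Dagla. The sums of the 10 sensory neuron markers were 10977 to 13018 FPKM in Sham, 10851 to 11581 in CPIP and 10371 to 12645 in CPIP+EA. Nefl, Nefm, Uchl1, Tubb3, Nefh and Prph make up most of these sums and Rbfox3 little, so they need not follow neuron content. Sham replicate 1 had the highest and CPIP+EA replicate 3 the lowest value of both Dagla and this sum. CPIP+EA replicates 1 and 2, which had sums of 12645 and 11906, above all 3 CPIP libraries, had lower Dagla than every Sham and CPIP library. Rbfox3, a neuronal splicing factor on that list, had 57.33, 49.83 and 46.70 FPKM in the Sham, 37.79, 42.83 and 40.22 in the CPIP, and 42.92, 35.83 and 27.47 in the CPIP+EA libraries, with a log2 fold change between CPIP+EA and Sham of -0.55 (limma adjusted p of 0.147), the lowest of the 10. In that comparison 7 of the 10 markers were lower and 3 higher (median log2 fold change -0.09). The lower ones were Rbfox3, the neurofilament genes Nefh (-0.30), Nefm (-0.27) and Nefl (-0.21), Snap25 (-0.10), Calca (-0.08) and Isl1 (-0.03), and the higher ones were Tubb3 (0.46), Prph (0.36) and Uchl1 (0.20). Between CPIP and Sham 7 were also lower and 3 higher (median -0.16), and between CPIP+EA and CPIP 2 were lower and 8 higher (median 0.04). None of the 10 passed the threshold in any comparison. The part of these markers in the Dagla values was not tested.

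Among the anandamide enzymes, the hydrolase Faah was listed at 1.27-fold of Sham in CPIP and 1.31-fold in CPIP+EA, short of the threshold. Faah had 2.71, 2.08 and 2.95 FPKM in the Sham, 3.28, 3.82 and 3.05 in the CPIP, and 3.44, 3.95 and 3.17 in the CPIP+EA libraries. Every CPIP and CPIP+EA library lay above every Sham library, the closest pair being 2.95 in Sham replicate 3 and 3.05 in CPIP replicate 3. The log2 fold change was 0.34 between CPIP and Sham (SE 0.14, interval 0.02 to 0.66, limma adjusted p of 0.526) and 0.39 between CPIP+EA and Sham (SE 0.14, interval 0.07 to 0.71, limma adjusted p of 0.298). It was 0.05 between CPIP+EA and CPIP (interval -0.27 to 0.37). Without Sham replicate 2, the value for CPIP against Sham was 0.22.

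The Faah row needs care, because the table lists a second identifier of the gene. The row named Faah has identifier 29347, whereas RefSeq on GRCr8 gives the name Faah to identifier 100911581, which the table lists as LOC100911581. LOC100911581 had 0.17, 0.35 and 0 FPKM in the Sham, 0.35, 0 and 0.70 in the CPIP, and 0, 0.17 and 0.35 in the CPIP+EA libraries, and reads could have been split between these rows. Summed, Faah and LOC100911581 had 2.88, 2.43 and 2.95 FPKM in the Sham, 3.63, 3.82 and 3.75 in the CPIP, and 3.44, 4.12 and 3.52 in the CPIP+EA libraries. The sum drew the CPIP libraries closer together and widened the gap to Sham. Its log2 fold change was 0.38 between CPIP and Sham (SE 0.11, limma adjusted p of 0.229) and 0.37 between CPIP+EA and Sham (limma adjusted p of 0.186), still short of the threshold. CPIP+EA and CPIP differed in it by -0.02. This sum was chosen after the values were seen.

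Napepld varied within the groups and hardly between them. It had 3.46, 4.59 and 3.52 FPKM in the Sham, 4.62, 3.21 and 4.17 in the CPIP, and 3.02, 3.69 and 4.63 in the CPIP+EA libraries. Of its log2 variance, 97.5% lay within groups, where the median over all genes tested was 76.1%. Its log2 fold changes lay between -0.08 and 0.04 in the 3 comparisons, with intervals that reached -0.48 and 0.44. The ratio of Faah to Napepld was 0.783, 0.453 and 0.838 in the Sham, 0.710, 1.19 and 0.731 in the CPIP, and 1.14, 1.07 and 0.685 in the CPIP+EA libraries, and these overlapped.

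Because Faah and Daglb were the members that lay above Sham in both other groups, their promoters are shown. RefSeq's promoter windows on GRCr8 reach from 250 bases before to 50 bases after a gene's start and matched 5 of the 7 genes by symbol (Cnr2, Daglb, Napepld, Faah and Mgll), Faah under identifier 100911581. The Faah row that lay above Sham has identifier 29347, and the row of 100911581 (LOC100911581) overlapped between all groups. Capitals mark matches, on either strand, to 4 motifs: the cAMP response element half-site TGACG, the AP-1 site TGANTCA, the GC box GGGCGG and the E-box CACGTG. The first window is chr12:16215709-16216008 (minus strand) and the second is chr5:134735347-134735646 (minus strand), both written 5′ to 3′ along the gene.
Daglb: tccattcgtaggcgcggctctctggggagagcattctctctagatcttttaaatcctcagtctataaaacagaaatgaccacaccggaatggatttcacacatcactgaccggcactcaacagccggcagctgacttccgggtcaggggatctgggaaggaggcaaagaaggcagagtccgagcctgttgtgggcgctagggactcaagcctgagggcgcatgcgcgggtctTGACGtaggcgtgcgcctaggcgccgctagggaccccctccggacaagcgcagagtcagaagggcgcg
Faah: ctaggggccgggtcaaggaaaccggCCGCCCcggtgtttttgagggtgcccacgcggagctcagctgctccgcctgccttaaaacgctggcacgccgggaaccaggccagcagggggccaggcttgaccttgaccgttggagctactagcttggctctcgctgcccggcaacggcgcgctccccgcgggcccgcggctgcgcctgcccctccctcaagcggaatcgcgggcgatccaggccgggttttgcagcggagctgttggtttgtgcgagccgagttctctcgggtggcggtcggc
The Daglb window holds 1 half-site, TGACG, at position 233 from its 5′ end, a motif found in 21.2% of all 33469 windows of this length. The Faah window holds 1 GC box, found in 33.1% of all windows, and no cAMP response element half-site. The AP-1 site (in 7.33% of all windows) and the E-box (in 6.42%) were in neither. The members' windows differed in base composition. Napepld (74.7% G or C, 8 GC boxes), Mgll (72.3%, 3 GC boxes) and Faah (69.7%) were far above the median window of 51.7%, Daglb was at 59.0%, and the 3 windows of Cnr2 lay between 46.7 and 53.0%. A match is a description of these letters and says nothing about binding.

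Mgll, the 2-AG hydrolase and most abundant member, had 79.37, 92.25 and 105.64 FPKM in the Sham, 104.97, 90.40 and 76.49 in the CPIP, and 60.85, 74.58 and 85.57 in the CPIP+EA libraries. The groups overlapped in every comparison. The lowest library was CPIP+EA replicate 1, and the means were 92.4 ± 13.1 in Sham, 90.6 ± 14.2 in CPIP and 73.7 ± 12.4 FPKM in CPIP+EA (SD, n = 3 each). The log2 fold change was -0.30 between CPIP+EA and CPIP (interval -0.65 to 0.06, limma adjusted p of 0.996), -0.33 for CPIP+EA against Sham (interval -0.68 to 0.03, limma adjusted p of 0.446) and -0.03 between CPIP and Sham (interval -0.38 to 0.32). Without CPIP+EA replicate 1, its lowest library, the first was -0.17 and the second -0.20. Mgll varied more within groups than most genes of its level, with a within-group SD of 0.227 on the log2 scale, larger than that of 92.9% of the 1695 genes within 2-fold of its mean.

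A sum of Schwann cell markers was set beside Mgll. The summed FPKM of 4 such markers (Mbp, Pmp22, Prx and Sox10, all 4 above 0 in all 9 libraries) was 3214, 4177 and 5113 in the Sham, 5260, 4944 and 3199 in the CPIP, and 2238, 3209 and 4556 in the CPIP+EA libraries. The lowest library in both Mgll and the sum was CPIP+EA replicate 1, and Sham replicate 3 and CPIP replicate 1 were the top pair in both. Within each group the libraries stood in the same order in Mgll as in the marker sum, which Mbp and Pmp22 dominated. Mbp, Pmp22 and Prx each kept that order within all 3 groups. Sox10, the transcription factor of the lineage, did not, with 42.42, 44.03 and 44.80 FPKM in the Sham, 42.90, 51.75 and 45.16 in the CPIP, and 40.51, 40.50 and 43.37 in the CPIP+EA libraries. The ranges of the sum per group were 3214 to 5113, 3199 to 5260 and 2238 to 4556, so CPIP+EA reached lowest in the sum as in Mgll. Fibroblast markers were lower in CPIP+EA as well. All 5 of them had a log2 fold change under 0 against CPIP (median -0.31) and against Sham (median -0.55). Against Sham, 4 of 5 had an unadjusted limma p under 0.05, where 12.2% of all genes did. None passed the threshold in either comparison. Their summed FPKM was 882, 1078 and 795 in the Sham, 751, 890 and 679 in the CPIP, and 533, 445 and 912 in the CPIP+EA libraries, an order that differed from that of Mgll within each group. The sum of 5 satellite glia markers was 4620, 4823 and 4866 in the Sham, 4969, 5104 and 5061 in the CPIP, and 4883, 5221 and 5245 in the CPIP+EA libraries. It kept the order of Mgll within Sham and CPIP+EA but not within CPIP. Over the 9 libraries, Sham replicate 3 was place 1 in Mgll and place 7 in this sum. Within CPIP+EA, the neutrophil, erythroid and B cell sums also rose from replicate 1 to 3, as Mgll did. The part of the Schwann cell, satellite glia and fibroblast markers in the Mgll values was not tested. The ratio of Mgll to the summed diacylglycerol lipases was 4.07 ± 0.917 in Sham libraries, 3.96 ± 0.659 in CPIP libraries and 3.61 ± 0.923 in CPIP+EA libraries (SD, n = 3 each), differences within the SD of each group.

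**Figure D4:**
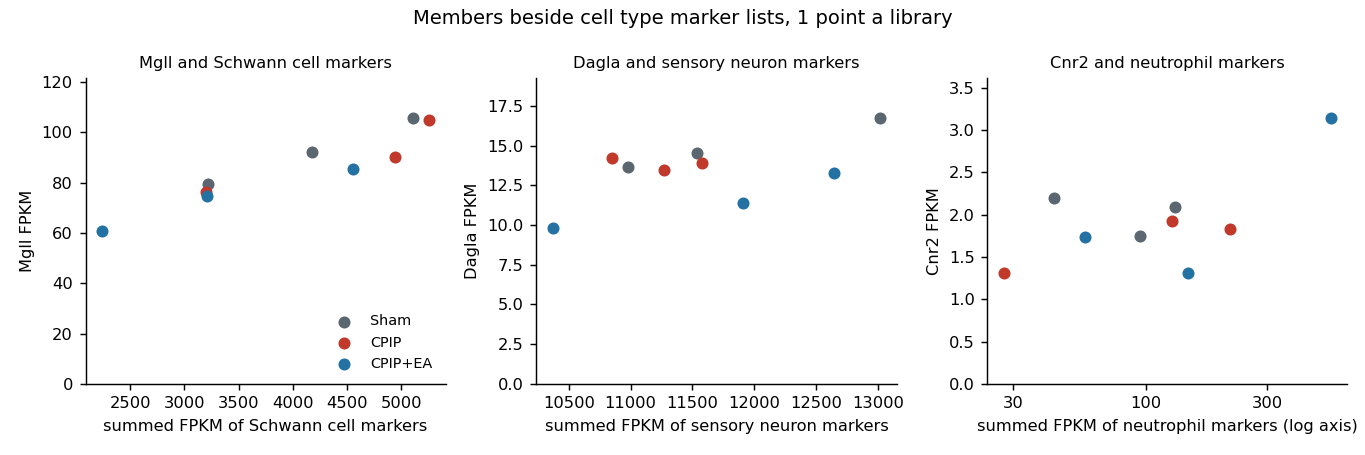
FPKM of Mgll, Dagla and Cnr2 (y axes, linear from 0) against the summed FPKM of Schwann cell, sensory neuron and neutrophil markers (x axes, the last a log axis), with 1 point a library, grey for Sham, red for CPIP and blue for CPIP+EA. Mgll climbs with the Schwann cell sum from CPIP+EA replicate 1 (60.85 and 2238) to Sham replicate 3 (105.64 and 5113), 2 CPIP+EA libraries with high neuronal sums have low Dagla, and 1 library is highest in both Cnr2 and the neutrophil sum. The neuronal sum is mostly Nefl, Nefm, Uchl1, Tubb3, Nefh and Prph.

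The genes whose patterns over the 9 libraries came closest to the members' were looked up among the other 13913 genes with a mean of at least 1 FPKM. Likeness was the mean absolute difference of z-scored log2(FPKM + 0.5) values, in SD units, and the 3 closest genes were taken for each member. Dagla had the closest companions, Nfic at 0.110, Scamp5 at 0.126 and Nacc2 at 0.150. Nfic, a transcription factor, had 88.18, 71.64 and 71.96 FPKM in the Sham, 70.76, 74.30 and 69.67 in the CPIP, and 68.70, 56.27 and 48.70 in the CPIP+EA libraries, with the CPIP+EA libraries lowest as in Dagla. For Daglb they were Sel1l3 (0.145), Lnp1 (0.175) and Wars (0.178), the last a tryptophanyl-tRNA synthetase. For Mgll they were Tead4 (0.149), Emid1 (0.157) and Filip1 (0.163), and Emid1 was lowest in CPIP+EA replicate 1 at 11.35 FPKM and highest in Sham replicate 3 at 28.14. Those of Cnr1 were Ppp4r4 (0.231), LOC681300 (0.258) and Rapgef4 (0.262). Those of Cnr2 were Dmbt1 (0.225), Dpt (0.244) and Cntd1 (0.247), all 3 highest in CPIP+EA replicate 3. Those of Napepld were Wdpcp (0.225), Appbp2 (0.243) and Sra1 (0.260), and those of Faah were Serpina1 (0.261), Rbm42 (0.284) and Tprn (0.309). These likenesses are descriptions over 9 libraries, with no test.

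The wider endocannabinoid system was read from a list of 36 further genes in the table, of which 33 passed the filter. The list covered other receptors of these lipids, other routes of synthesis and breakdown, lipid carriers and CB1 partners, phospholipases that supply diacylglycerol, and the Gi/o proteins downstream of CB1. None of the 33 passed the threshold in any comparison. An unadjusted limma p under 0.05 was reached by 3 of the 33 between CPIP and Sham (2 higher, 1 lower), by 1 between CPIP+EA and CPIP (higher) and by 4 between CPIP+EA and Sham (all higher), beside 8.66%, 4.29% and 12.2% of all genes. The median log2 fold change of the 33 was -0.01, 0.04 and 0.04 in the 3 comparisons.

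Fabp5, a fatty acid binding protein that carries anandamide inside cells, came closest. It had 322.06, 346.03 and 326.11 FPKM in the Sham, 445.86, 446.68 and 521.98 in the CPIP, and 433.59, 523.21 and 462.39 in the CPIP+EA libraries. All CPIP and CPIP+EA libraries lay above all Sham libraries, the closest being 346.03 in Sham replicate 2 and 433.59 in CPIP+EA replicate 1. The log2 fold change was 0.50 between CPIP and Sham (SE 0.10, limma adjusted p of 0.0566) and 0.51 between CPIP+EA and Sham (SE 0.10, limma adjusted p of 0.0388), a fold of 1.42 each time, and 0.00 between CPIP+EA and CPIP (interval -0.21 to 0.22). Its relative Fabp7, the carrier of satellite glia, had 25.64, 55.02 and 37.11 FPKM in the Sham, 25.12, 32.13 and 25.28 in the CPIP, and 41.13, 42.75 and 51.93 in the CPIP+EA libraries. The CPIP+EA libraries lay above the CPIP libraries, with a log2 fold change of 0.71 (limma adjusted p of 0.996), and Sham overlapped both. Of the 5 satellite glia markers, which include Fabp7, 3 were higher and 2 lower in that comparison, with Glul at -0.21.

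**Figure D5:**
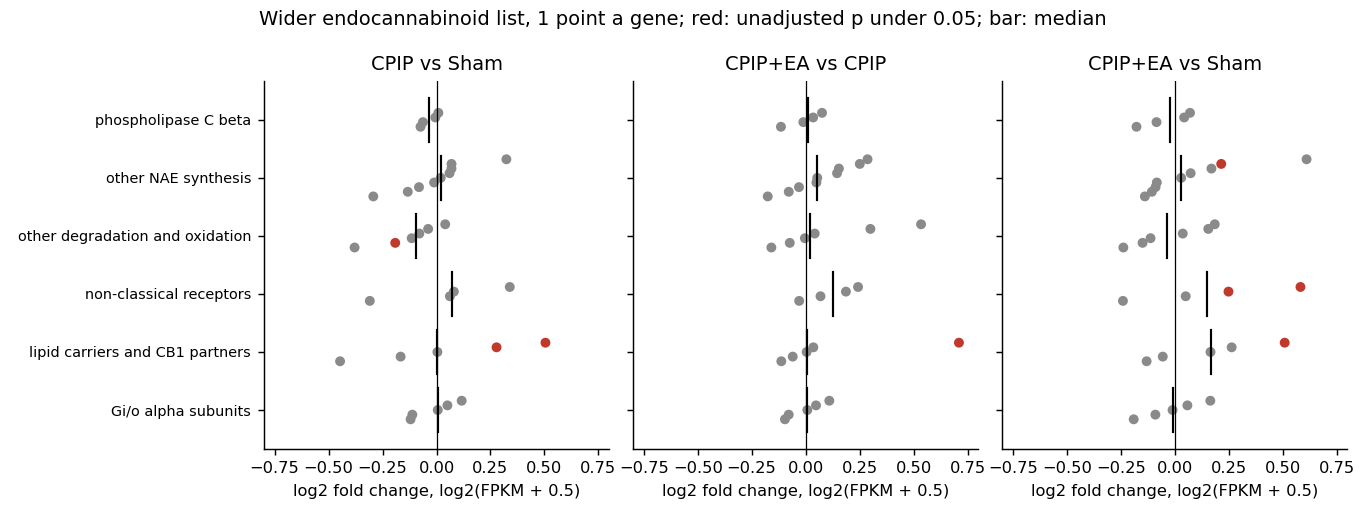
Log2 fold changes on the log2(FPKM + 0.5) scale (x axis) of the 33 tested genes of the wider endocannabinoid list, 1 point a gene, in 6 groups by role (rows) and 3 comparisons, red where the unadjusted limma p was under 0.05, with the median of each group as a bar. The farthest point, Fabp7 between CPIP+EA and CPIP, is at 0.71, and no gene passed the adjusted threshold.

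No other receptor of these lipids passed the threshold. Gpr18, a receptor for N-arachidonoylglycine, had 0.18, 0.05 and 0.37 FPKM in the Sham, 0.23, 0.55 and 0.36 in the CPIP, and 0.54, 0.50 and 0.55 in the CPIP+EA libraries, a log2 fold change of 0.58 between CPIP+EA and Sham (limma adjusted p of 0.243). At these low values the size rests on the pseudocount, and it was 1.22 with 0.1 and 0.36 with 1 in place of 0.5. Pparg, a nuclear receptor, had means of 1.68 ± 0.0252, 1.78 ± 0.163 and 2.10 ± 0.213 FPKM in Sham, CPIP and CPIP+EA (SD, n = 3 each), with an adjusted p of 0.397 in limma for the last against the first. Trpv1, the capsaicin receptor that anandamide also opens, had 35.58, 34.44 and 31.59 FPKM in the Sham, 26.99, 24.72 and 30.18 in the CPIP, and 32.75, 34.20 and 20.77 in the CPIP+EA libraries. Its CPIP libraries lay below its Sham libraries, with a log2 fold change of -0.31 (limma adjusted p of 0.713), and CPIP+EA overlapped both. Gpr55 and Gpr119 did not pass the filter.

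Among the further enzymes, Abhd12, a second hydrolase of 2-AG, had 110.84, 92.24 and 89.41 FPKM in the Sham, 85.88, 84.57 and 84.38 in the CPIP, and 86.32, 92.29 and 83.97 in the CPIP+EA libraries. Its CPIP libraries lay below its Sham libraries, with a log2 fold change of -0.19 (limma adjusted p of 0.559), which was -0.10 without Sham replicate 1. Gdpd1, a lysophospholipase D of anandamide synthesis, had means of 19.3 ± 1.88, 20.2 ± 1.14 and 22.4 ± 1.60 FPKM in the same order (SD, n = 3 each), and the log2 fold change between CPIP+EA and Sham was 0.22 (limma adjusted p of 0.347). Pla2g4e, which makes the anandamide precursor, had a log2 fold change of -0.29 between CPIP and Sham (limma adjusted p of 0.586), which was -0.18 without CPIP replicate 1. Naaa, the lysosomal amidase, had -0.24 between CPIP+EA and Sham (limma adjusted p of 0.515), which was -0.12 without Sham replicate 1. The 4 phospholipase C beta genes lay between -0.18 and 0.08 on the log2 scale in all 3 comparisons, led by Plcb3 at -0.18 and with Plcb4 at -0.08 between CPIP+EA and Sham. With 1 library left out, that value of Plcb4 ran from -0.14 to -0.03. The 5 Gi/o alpha genes lay between -0.19 and 0.16, with Gnai1 at -0.12 between CPIP and Sham and Gnai3 at 0.16 between CPIP+EA and Sham, and their smallest adjusted p in limma was 0.456. With 1 library left out, that value of Gnai3 ran from 0.09 to 0.24.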

How the data were processed

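The 9 libraries (3 Sham, 3 CPIP, 3 CPIP+EA) were made from right L4-6 DRGs. The authors cleaned single-end reads with SOAPnuke, and the deposited table gives 1 FPKM value for each gene in each library, to 2 decimals. Aligner, genome build and annotation are not given in the sources used here. The deposited table also holds 9 columns of the authors' comparisons of the groups (log2 ratios with P and Q), which were not used.

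FPKM values were tested as log2(FPKM + 0.5), which understates changes of low genes, with limma version 3.58.1 (R version 4.3.3) and its moderated linear model, the prior variance following the mean level. All 9 libraries entered 1 fit without covariates. The filter was a mean of at least 0.1 FPKM, and two-sided p-values were adjusted by Benjamini-Hochberg over every gene that passed it. They set each difference between groups against the spread of these libraries within groups, pooled over the 3 groups. The study's methods name 3 rats a group as the source of the libraries. The fit was checked on simulated data with changes larger than those of the members. That check does not speak to differences of the members' size. Tables and figures were made with Python 3.11.15, pandas 2.3.3 and matplotlib 3.10.9.

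The members and lists were chosen with earlier results of these data known. Named genes were the members, the 3 genes closest to each in pattern and, for each role in the wider list, the 2 genes with the smallest p. Marker genes are named where they check the tissue or touch a member's values. The Schwann cell sum was taken over 4 genes, and other markers of that list are not reported here. Gpr55, Gpr119, Trpv1, Abhd4, Gde1 and the single neuron, satellite glia and Schwann cell markers were named after their values were seen. Alternatives covered the pseudocount, filter, scaling, variance model, the replicate number as a block, separate fits for each comparison, the threshold, and leaving out each library.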

Additional observations from a re-analysis of the deposited data

How the results depend on the processing

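In every alternative fit, 0 of the 7 members passed the threshold in each of the 3 comparisons, also at an adjusted p under 0.05 with no fold threshold. The count of the wider list was 0 in every fit, and at an adjusted p under 0.05 with no fold threshold it became 1 between CPIP+EA and Sham (Fabp5). That call rests on the fit, since the limma adjusted p of Fabp5 ran from 0.0293 (robust variance trend) to 0.139 (without Sham replicate 1) over the alternatives. Between CPIP and Sham it ran from 0.0452 (robust variance trend) to 0.219 (without CPIP replicate 3), with 0.0566 in the fit reported and 0.123 with the replicate block. Among the members, Cnr1, Dagla and Daglb kept the sign of their log2 fold change in all alternatives and comparisons, as did Faah against Sham. Cnr1 lay between -0.41 and -0.20 for CPIP against Sham, Dagla between -0.48 and -0.27 for CPIP+EA against Sham, and Faah between 0.22 and 0.43 for CPIP against Sham.

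Signs turned for small differences with 1 library left out, over these ranges of log2 fold change. Between CPIP+EA and CPIP these were -0.11 to 0.40 for Cnr2, -0.025 to 0.13 for Faah, -0.22 to 0.056 for Napepld, -0.070 to 0.080 for Fabp5, -0.23 to 0.077 for Plcb3, -0.071 to 0.044 for Plcb4 and -0.030 to 0.12 for Gnai3. Between CPIP and Sham they were -0.14 to 0.085 for Mgll, -0.056 to 0.18 for Napepld and -0.17 to 0.040 for Naaa. Between CPIP+EA and Sham they were -0.32 to 0.19 for Cnr2, -0.17 to 0.10 for Napepld, -0.0052 to 0.54 for Fabp7, -0.29 to 0.014 for Plcb3 and -0.046 to 0.040 for Gnai1. Scaling turned the sign of 2 genes between CPIP+EA and CPIP, Fabp5 to -0.039 with quantile normalization and -0.015 on the TPM scale, and Plcb4 to 0.00080 with median centring. Faah was -0.017 when summed with LOC100911581. The cause of these turns was not tested.

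Deviations of libraries from their group means gave Pearson r across genes of -0.24 to 0.30 for same-numbered pairs. For pairs of different numbers r was -0.22 to 0.28. No pairing by replicate number was seen, but with 3 libraries a group this check cannot exclude one. With the replicate number as a block, 0 members passed, and Dagla between CPIP+EA and Sham kept -0.37 with a limma adjusted p of 0.190 (0.0842 to 0.445 over all alternatives). With 3 libraries a group, differences of the sizes seen in the members (at most 1.31-fold) were not resolved from no difference after adjustment.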
